A study of Mus musculus with 6 samples.

Results

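Voltage-gated sodium channels open when the membrane depolarises, let sodium enter and carry the fast upstroke of the action potential. Each channel is built around a single large pore-forming alpha subunit, encoded by the Scn genes, with smaller beta subunits beside it. Enteroendocrine L-cells of the gut, which secrete GLP-1, are electrically excitable, and GLUTag cells are a murine L-cell model that fires action potentials. The expression of 8 pore subunit genes was measured here in GLUTag cells, namely Scn1a, Scn2a, Scn3a, Scn4a, Scn8a, Scn9a, Scn10a and Scn11a, which were chosen by name among the 54281 genes of the table and were all found in it.

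The data were 6 libraries of GLUTag cells in a single culture condition, an established cell line described in the labels as enteroendocrine cells, grown for 48 h in medium with 1 g/L glucose and 10% FBS. Plate 1, at passage 23, gave 3 of them and plate 2, at passage 27, the other 3. Passage and plate cannot be told apart, and nothing states that wells of a plate were separate cultures. The p-values therefore measure only the spread between these libraries. Each library was read from the 3′ end of polyadenylated transcripts, so a count stands for a transcript end, whatever its length. Levels of different genes were compared with no division by length, as CPM, the count per M counts of the library total. Genes may differ in how fully their ends are counted, which was not measured. The totals lay between 21.4 and 36.5 M counts, and 3 counts, the most that a count of 0 allows, were worth between 0.0822 and 0.14 CPM. This limit covers counting error only. In bulk libraries, fewer cells with a transcript and less of it per cell cannot be told apart.

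The cell type in the labels was checked against its defining genes. All 9 enteroendocrine markers were above 3 counts in each library, with a summed level from 5695 to 7624 CPM, and Gcg, the proglucagon gene, was the highest at 3416 ± 771 CPM (SD, n = 6). Of the 6 neuronal markers, 5 were above 3 counts in each library and Rbfox3, which marks mature neurons, had 3 to 20 counts. The glial marker Sox10 had a count of 0 in each library, and the summed level of the 4 skeletal muscle markers lay between 3.45 and 5.17 CPM, most of it Acta1. The plate 2 columns could not be matched to replicate numbers, so these libraries are called lowest-, middle- and highest-total. The middle-total one stood apart from the other two of its plate, with 354 of the 5031 genes at 30 CPM or above (mean) reduced over 2-fold and 2 raised over 2-fold. Some means are given without it too.

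The members fall into 2 pharmacological classes that can be read from the channel gene itself. Tetrodotoxin, the puffer fish toxin, plugs the outer mouth of the pore, and an aromatic residue in the pore loop of the first repeat is known to be needed for tight binding. Nav1.8 and Nav1.9, the products of Scn10a and Scn11a, carry serine at that place and resist the toxin, whereas Nav1.1, Nav1.2, Nav1.3, Nav1.4, Nav1.6 and Nav1.7, the products of Scn1a, Scn2a, Scn3a, Scn4a, Scn8a and Scn9a, are sensitive. The coding stretch of 45 bases around this codon is shown for 7 of the genes from the GENCODE M21 reference transcript, 5′ to 3′ on the sense strand, with the codon in capitals, because it carries the difference between the classes.
Scn2a: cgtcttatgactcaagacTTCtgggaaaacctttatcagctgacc
Scn3a: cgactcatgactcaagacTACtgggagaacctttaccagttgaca
Scn4a: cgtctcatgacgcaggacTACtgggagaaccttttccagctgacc
Scn8a: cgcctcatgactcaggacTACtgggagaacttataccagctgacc
Scn9a: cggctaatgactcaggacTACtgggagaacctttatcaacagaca
Scn10a: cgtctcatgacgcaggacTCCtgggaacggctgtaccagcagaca
Scn11a: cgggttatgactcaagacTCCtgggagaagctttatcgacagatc

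The codon was TTC in Scn2a, TAC in Scn3a, Scn4a, Scn8a and Scn9a, and TCC in Scn10a and Scn11a. On GRCm38 it lies at chr2:65688436-65688438 in Scn2a, chr2:65521813-65521815 in Scn3a and chr2:66549001-66549003 in Scn9a. In the others it lies at chr11:106343913-106343915 in Scn4a, chr15:100971638-100971640 in Scn8a, chr9:119666387-119666389 in Scn10a and chr9:119805680-119805682 in Scn11a. The codon is in coding exon sequence in each case, in exon 8 of the transcript for Scn4a and in exon 9 for the other 6 genes shown, and the stretch runs on into the next exon.

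Transcripts of 5 members were found well above the counting limit in GLUTag cells, and 1 more was found at a low level. Scn3a was the highest, followed by Scn1a and Scn8a, which were not separated from each other, then Scn9a, then Scn2a and then Scn11a, while Scn4a and Scn10a were at or near a count of 0. The sum of the 8 genes was 104 ± 11.3 CPM (SD, n = 6), from 83.9 to 114 CPM.

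Scn3a (ENSMUSG00000057182, chromosome 2 of GRCm38, 65457118 to 65567627, minus strand) encodes Nav1.3, a channel known from the embryonic brain and from endocrine cells. It had 37.2, 32.0 and 40.6 CPM in plate 1 replicates 1, 2 and 3, and 34.1, 34.8 and 41.2 CPM in the lowest-, middle- and highest-total libraries of plate 2. The plates overlapped, and in each library Scn3a was above every other member. Its mean level was 36.7 ± 3.68 CPM (SD, n = 6), at rank 4360 of 27044 genes that had any count.

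Scn1a (ENSMUSG00000064329, chromosome 2, 66270778 to 66440840, minus strand) encodes Nav1.1, best known from inhibitory interneurons of the brain. Its level was 20.8, 18.1 and 27.0 CPM in the plate 1 replicates and 27.9, 22.7 and 27.0 CPM on plate 2 in the same order, or 23.9 ± 4.01 CPM (SD, n = 6). Scn8a (ENSMUSG00000023033, chromosome 15, 100869858 to 101045938, plus strand) encodes Nav1.6, the main channel of the axon initial segment and the nodes of Ranvier in adult neurons. It had 19.0, 16.6 and 22.4 CPM on plate 1 and 23.1, 28.3 and 21.6 CPM on plate 2, or 21.8 ± 3.97 CPM (SD, n = 6). Both genes overlapped between the plates, and the highest value of Scn8a was that of the middle-total library of plate 2, without which its mean was 20.6 ± 2.70 CPM (SD, n = 5).

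Scn9a (ENSMUSG00000075316, chromosome 2, 66480080 to 66634962, minus strand) encodes Nav1.7, known for its part in pain-sensing neurons and found in endocrine cells too. The libraries had 17.6, 12.0 and 18.4 CPM on plate 1 and 18.0, 15.4 and 17.9 CPM on plate 2, with a mean of 16.5 ± 2.46 CPM (SD, n = 6). Plate 1 replicate 2 was the lowest library for Scn9a, as it was for Scn3a, Scn1a and Scn8a. Scn2a (ENSMUSG00000075318, chromosome 2, 65620771 to 65767447, plus strand) encodes Nav1.2, a channel of excitatory neurons. It had 3.92, 3.84 and 4.49 CPM on plate 1 and 4.24, 3.04 and 4.52 CPM on plate 2, or 4.01 ± 0.551 CPM (SD, n = 6) from 87 to 165 counts. The middle-total library of plate 2 was its lowest, and the mean without it was 4.20 ± 0.315 CPM (SD, n = 5).

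Of the tetrodotoxin-resistant members, Scn11a (ENSMUSG00000034115, chromosome 9, 119753759 to 119825456, minus strand) encodes Nav1.9, a channel of sensory and enteric neurons that opens near the resting potential. It had 14, 30 and 26 counts on plate 1 and 27, 24 and 40 counts on plate 2, or 0.993 ± 0.278 CPM (SD, n = 6), and was above 3 counts in 6 of 6 libraries. Scn10a (ENSMUSG00000034533, chromosome 9, 119608456 to 119719322, minus strand), the gene of Nav1.8 in pain-sensing neurons, had 2 counts in plate 1 replicate 1, 2 counts in the highest-total library of plate 2 and 0 in the other four. Scn4a (ENSMUSG00000001027, chromosome 11, 106318592 to 106353288, minus strand), the gene of the skeletal muscle channel Nav1.4, had 4 counts in the highest-total library of plate 2, 1 in the middle-total one and 0 elsewhere. Neither gene was detectable above the limit of 3 counts in most libraries, and their order could not be settled.

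**Figure D1:**
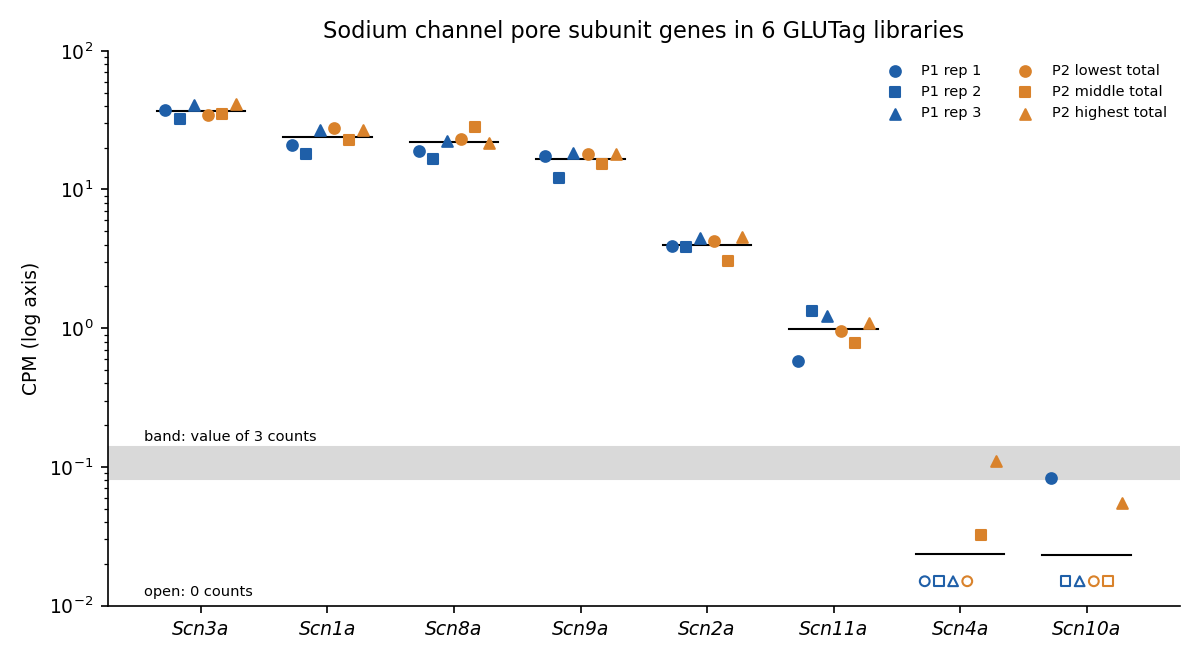
Level of the 8 pore subunit genes in CPM on a log axis, 1 point for each library (blue for plate 1, orange for plate 2), with a black line at the mean of 6 libraries, a grey band at the value of 3 counts, and open symbols at the bottom for a count of 0. Scn3a is highest at a mean of 36.7 CPM, Scn1a and Scn8a overlap, Scn2a sits at 4.01 CPM and Scn11a at 0.993 CPM. No point of Scn4a or Scn10a lies above the top of the band, which spans the libraries' limits. Scn4a in the highest-total library of plate 2, at 0.110 CPM, is above that library's own limit of 0.0822 CPM.

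Members were set against each other within each library, on the log2 scale with 1 CPM added to both. The mean difference over the 6 libraries was tested by exact permutation of its signs (two-sided). Of the 28 possible pairs, 27 were tested, and that of Scn4a with Scn10a was left out because each had at most 3 counts in some libraries. In 26 of the 27 pairs the same gene was higher in 6 of 6 libraries, with an exact permutation p of 0.03125, the smallest that 6 libraries allow, or 0.0325 after Benjamini-Hochberg adjustment over the 27 pairs. In 12 of these 26 pairs the lower gene was Scn4a or Scn10a, and there the p says only that the other gene was detected in each library. Of the 15 pairs among the 6 members above 3 counts in each library, 14 were separated (p = 0.0335 by exact permutation, adjusted over the 15 pairs). This p does not take into account that libraries of a plate may share a culture. Nor can it see a difference between genes in how fully their ends are counted, which all libraries would share. Among the 7 genes with sequence shown, the reference 3′ untranslated region ran from 469 bases in Scn10a to 5241 in Scn8a. The annotated transcript ends ran from 1 in Scn4a to 7 in Scn8a. Whether this bears on the order was not tested.

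Scn3a exceeded Scn1a by a mean log2 difference of 0.61 ± 0.19 (SD, n = 6), which was 0.73 on plate 1 and 0.49 on plate 2. The difference was smallest, at 0.28, in the lowest-total library of plate 2. Scn8a exceeded Scn9a by 0.38 ± 0.25 on the log2 scale (SD, n = 6), with 0.84 in the middle-total library of plate 2 against 0.11 to 0.44 in the other five, and a mean of 0.28 without that library. The steps below were wider: Scn9a was above Scn2a by a log2 difference of 1.80 ± 0.20 and Scn2a above Scn11a by 1.33 ± 0.20 (each SD, n = 6). Without a pseudocount, the ratio of the mean levels was 4.13 for Scn9a over Scn2a and 4.04 for Scn2a over Scn11a.

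Scn1a and Scn8a were the only neighbours tested that did not differ beyond their spread. Their log2 difference averaged 0.13 ± 0.23 (SD, n = 6), Scn1a being above Scn8a in 5 of 6 libraries (p = 0.219 by exact permutation, and 0.219 adjusted over the 27 pairs). Scn8a was the higher gene in the middle-total library of plate 2, by 0.31, and without that library the mean difference was 0.21 with Scn1a higher in each of the other five. A test over 5 libraries cannot go below p = 0.0625 by exact permutation, so this value has none. Whether the other differences of that library bear on this was not tested.

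**Figure D2:**
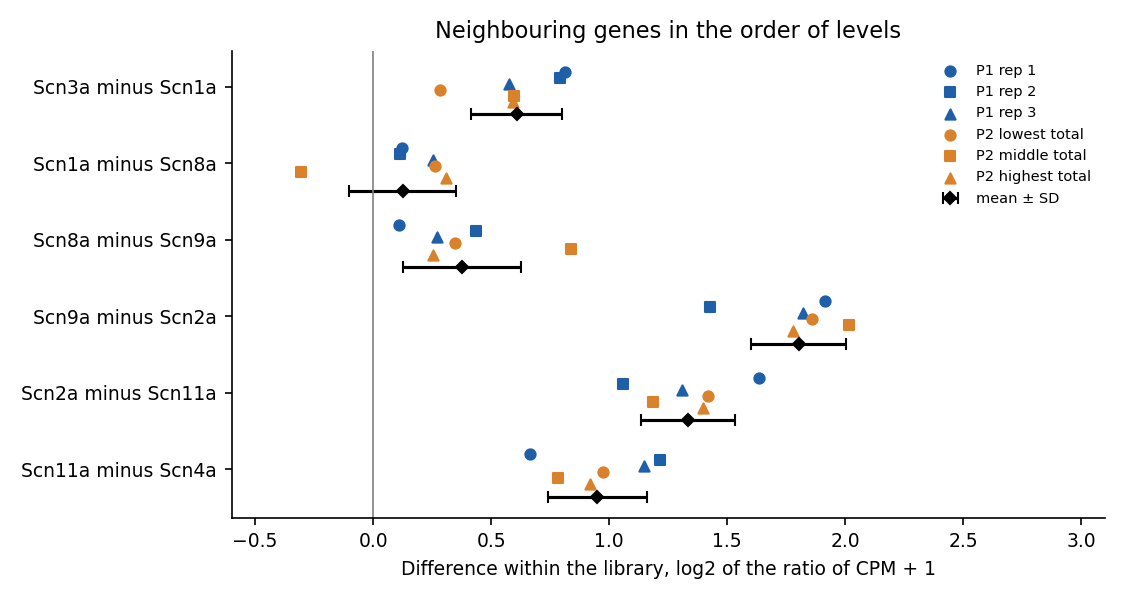
Difference between neighbouring genes in the order of levels, within each library as the log2 ratio with 1 CPM added to both (horizontal axis), 1 point for each library (blue for plate 1, orange for plate 2), and the mean with its SD over 6 libraries in black. The points lie to the right of 0 for each pair except Scn1a minus Scn8a, where the middle-total library of plate 2 is at -0.31.

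Scn3a held the largest share of the family in each library. It gave 35.4 ± 2.59% (SD, n = 6) of the summed count of the 8 genes, Scn1a 22.9 ± 1.84%, Scn8a 21.0 ± 3.03% and Scn9a 15.9 ± 1.25% (each SD, n = 6). Together these 4 genes held 95.1 ± 0.804% (SD, n = 6), and Scn2a and Scn11a held 3.88% and 0.971%. The share of Scn2a was 2.90% in the middle-total library of plate 2 against 3.91% to 4.58% in the others, and its mean was 4.07% without that library. The share of Scn3a was 37.1 ± 1.35% on plate 1 and 33.6 ± 2.44% on plate 2 (each SD, n = 3), with overlap between the plates. The share of Scn8a lay between 19.0% and 21.3% in 5 libraries and was 26.9% in the middle-total library of plate 2, so that its mean was 19.8% without that library.

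The tetrodotoxin-sensitive genes held 99.0 ± 0.325% of the family's counts (SD, n = 6), from 98.4% in plate 1 replicate 2 to 99.3% in plate 1 replicate 1. Scn11a carried nearly all of the remaining 0.993 ± 0.325% (SD, n = 6). The plates did not differ beyond their spread, with 98.9 ± 0.455% on plate 1 and 99.1 ± 0.137% on plate 2 (each SD, n = 3). These are shares of transcripts, and currents were not measured in these libraries.

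**Figure D3:**
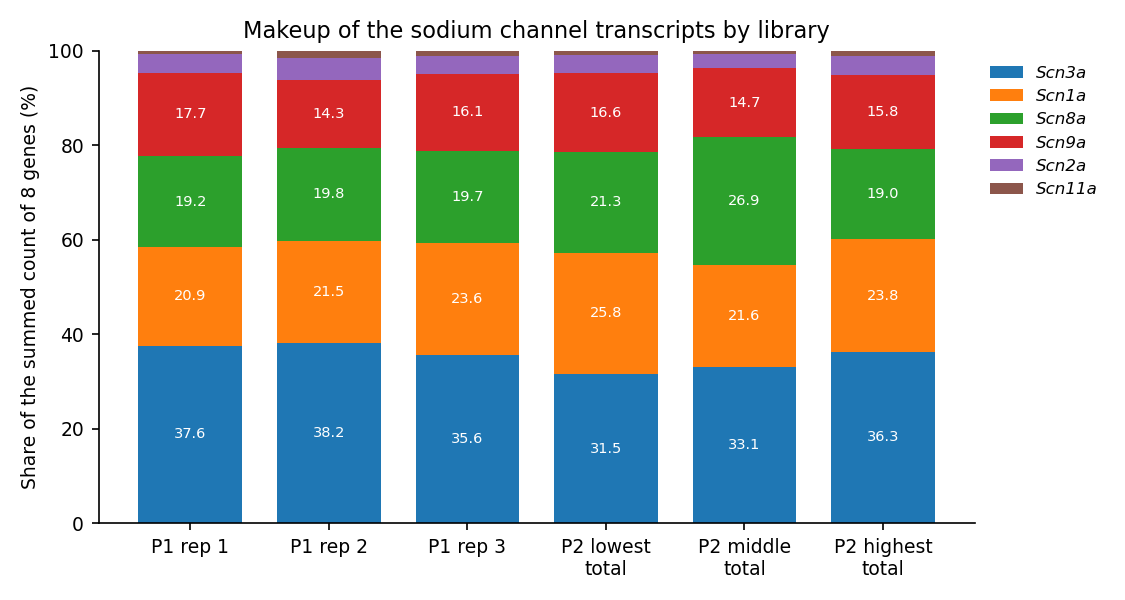
Share of each gene in the summed count of the 8 pore subunit genes, in percent, 1 stacked bar for each library, with the values of the upper 4 genes printed (Scn4a and Scn10a are too small to draw). Scn3a is the largest part in each bar, between 31.5% and 38.2%, and the part of Scn8a is 26.9% in the middle-total library of plate 2 against 19.0% to 21.3% in the others.

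The genes also differ in place. Scn3a, Scn2a, Scn1a and Scn9a form a cluster on chromosome 2, with Scn2a on the strand opposite to the other three, and together they held 78.0 ± 2.93% of the family's counts (SD, n = 6). This share was 72.3% in the middle-total library of plate 2 and 77.8% to 80.2% in the others, with a mean of 79.1 ± 0.960% without that library (SD, n = 5). Within this cluster the level ran from 4.01 CPM for Scn2a to 36.7 CPM for its neighbour Scn3a. Scn10a and Scn11a are neighbours on chromosome 9, and Scn8a and Scn4a lie on chromosomes 15 and 11. The annotation places Gm13630, with 24 to 98 counts, on the opposite strand within Scn1a, and Gm13629, with at most 10 counts, on the opposite strand across Scn9a. The pseudogene Gm13627, with at most 15 counts, lies on the same strand within Scn9a. The strand setting of the counting is not given in the sources used here, so reads of these overlaps could be shared.

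Members of one gene family can compete for reads, and the deposited values show some of the members and libraries in which reads were split. Over the 21 pairs of the 7 genes whose sequence is shown, the coding sequences were between 63.4% and 83.4% identical by base, with Scn2a and Scn3a the closest pair. The longest run of identical bases among these pairs joined Scn3a and Scn9a, with 184 bases in exons 15 and 16 of both, and a read from within it cannot be assigned to one of the genes.

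The run of Scn3a and Scn9a begins 5722 bases before the end of the Scn3a transcript and 6781 bases before that of Scn9a, and in the last 1000 bases of the transcripts, nearer to where 3′ reads start, none of the 21 pairs shared more than 15 bases in a row. Expected counts that are not whole show where the counting split reads. A fraction of more than 0.005 was found in Scn3a and Scn9a in plate 1 replicate 1, in Scn1a and Scn2a in plate 1 replicate 3, in Scn3a, Scn1a, Scn9a and Scn2a in the middle-total library of plate 2, and in Scn3a, Scn9a and Scn2a in its highest-total library. The other libraries and the other members had none. In each library the summed count of the 8 genes came within 0.001 of a whole number. A fraction is only the part of a count after the decimal point. It shows that reads were split but not how many, and that number was not measured. Reads that the counting gave whole to one of several members leave no fraction and are not seen in this way.

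The coefficient of variation over 6 libraries was 10.0% for Scn3a, 16.8% for Scn1a, 18.2% for Scn8a and 14.9% for Scn9a, where counting error would give 3.21%, 3.96%, 4.14% and 4.78%. For Scn2a and Scn11a the values were 13.7% and 28% against 9.74% and 19.6% from counting. Counting error is the least spread that separate libraries can show, and these values were not tested against it.

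No member passed the test between the plates. None of the 6 members that passed the filter on low counts had an adjusted p under 0.05 by edgeR (quasi-likelihood, adjusted by Benjamini-Hochberg over 15669 genes), of which 29 or 0.185% did, and none had an unadjusted p under 0.05, where 16.1% of all genes did. DESeq2 and limma-voom also called none of them, where they called 1.96% and 0.0638% of all genes. None of the 6 had plates that did not overlap in CPM, against 39.2% of all genes tested. Scn4a and Scn10a were not tested by edgeR because of their low counts.

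With TMM scaling the log2 fold change of plate 2 over plate 1 was -0.26 for Scn3a (standard error 0.14, 95% interval from -0.57 to 0.05, adjusted p = 0.391 in edgeR), the smallest adjusted p of the 6. It was -0.03 for Scn1a (95% interval from -0.40 to 0.34) and 0.07 for Scn8a (from -0.30 to 0.44). For Scn9a it was -0.17 (from -0.56 to 0.23), for Scn2a -0.32 (from -0.82 to 0.18) and for Scn11a -0.40 (from -1.35 to 0.54). The median over the 6 members was -0.21 and over all genes tested 0.03, and with no scaling beyond the total count these medians were 0.05 and 0.30, so the sign of such small values turns with the scaling. Each of the 6 intervals held 0, and the widest was that of Scn11a, the member tested with the fewest counts.

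**Figure D4:**
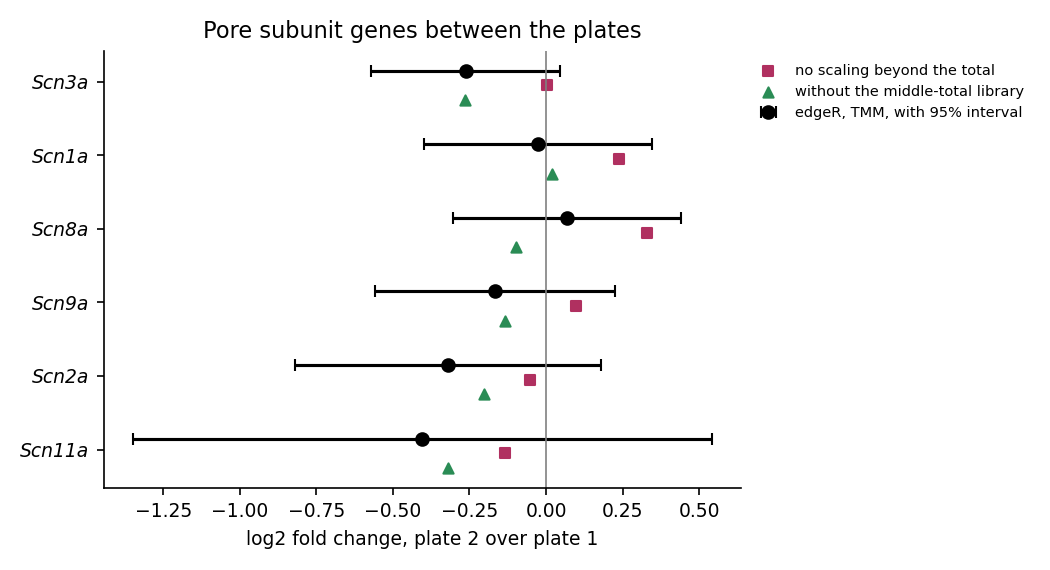
log2 fold change of plate 2 over plate 1 for the 6 tested members, as black points with 95% intervals from edgeR with TMM scaling, red squares with no scaling beyond the total count, and green triangles without the middle-total library of plate 2. Each black interval spans 0, from -0.57 to 0.05 for Scn3a and from -1.35 to 0.54 for Scn11a.

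The channel's partners were read next, as 34 genes in 8 lists. Beta subunits tune the gating of the pore and hold it in the membrane. Scn3b had 15.1 ± 2.70 CPM (SD, n = 6), from 12.0 to 19.8 CPM. Scn2b had 2 to 21 counts and was above 3 counts in 3 of 6 libraries, and Scn4b had 12 counts in the lowest-total library of plate 2 and at most 1 in the others. Scn3b did not overlap between the plates in CPM, with 13.3 ± 1.58 CPM on plate 1 and 16.8 ± 2.60 CPM on plate 2 (each SD, n = 3), but its log2 fold change with TMM scaling was 0.07.

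Fibroblast growth factor homologous factors bind the tail of the pore subunit inside the cell and set how fast it inactivates. Fgf12 was the highest at 45.5 ± 2.38 CPM (SD, n = 6), followed by Fgf14 at 8.59 ± 1.47 CPM and Fgf11 at 2.29 ± 0.590 CPM (each SD, n = 6). Fgf13 had 9 counts in the lowest-total library of plate 2, the same library that held the counts of Scn4b, and at most 1 in the others. Fgf12 lay within 41.2 to 48.3 CPM in all 6 libraries.

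The 7 anchor genes, whose products tie the channel to the cytoskeleton and to adhesion molecules, were above 3 counts in each library. Their levels ran from 2.31 ± 0.593 CPM for Sptbn4, a spectrin of the axon initial segment, to 73.4 ± 8.06 CPM for Cntn1, an adhesion molecule (each SD, n = 6). Of the 6 genes of trafficking and turnover, Nedd4, a ubiquitin ligase, was highest at 141 ± 36.3 CPM (SD, n = 6), or 151 ± 30.6 CPM without the middle-total library of plate 2 (SD, n = 5), and S100a10, an annexin partner that carries Nav1.8 to the membrane, was lowest with at most 4 counts. Of the calmodulin genes read, Calm3 had 825 ± 152 CPM and Calm2 had 909 ± 233 CPM (each SD, n = 6). Calm2 was lowest in the middle-total library of plate 2, at 578 CPM, and its mean was 976 ± 187 CPM without that library (SD, n = 5).

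Rest, the silencer of neuronal genes for which the Scn2a gene is a textbook target, had 2.32 ± 0.564 CPM (SD, n = 6). It was lowest in the middle-total library of plate 2, at 1.39 CPM, and its mean was 2.51 ± 0.369 CPM without that library (SD, n = 5). The corepressor of Rest, Rcor1, had 75.4 ± 7.87 CPM (SD, n = 6). The sodium leak channel, which carries a resting sodium current, had its pore gene Nalcn at 4 counts or fewer in each library, while the auxiliary gene Unc80 was highest of its list at 26.5 ± 5.45 CPM (SD, n = 6). Of the 6 sodium pump genes read, whose products expel the sodium that enters, Atp1b1 was highest at 121 ± 28.5 CPM (SD, n = 6) and Atp1a4 lowest at 0.271 CPM.

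Between the plates, none of the 28 partner genes tested by edgeR had an adjusted p under 0.05 against 0.185% of all genes, and 4 had an unadjusted p under 0.05 against 16.1% of all genes. Limma-voom called none of them and 0.0638% of all genes, and DESeq2 called 1 of 34 and 1.96% of all genes. The gene was Calm3, whose log2 fold change in edgeR was -0.68 (standard error 0.13, adjusted p = 0.0832). With no filter on low counts, edgeR called Calm3 too (adjusted p = 0.00142), as 1 of 34 partner genes and among 545 of 27022 genes. The plates did not overlap in CPM for 11 of the 28, against 39.2% of all genes, and the median log2 fold change was -0.02. With no scaling beyond the total count the median was 0.24 and edgeR called 3 of the 28, Atp1b1, Atp1b3 and Nedd4l, where it called 9.32% of all genes. Without the middle-total library of plate 2, edgeR called 5 of 28 partner genes, among them Fgf12 and Calm3, and 12.0% of all genes. In that setting it called none of the 6 pore subunits tested.

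**Figure D5:**
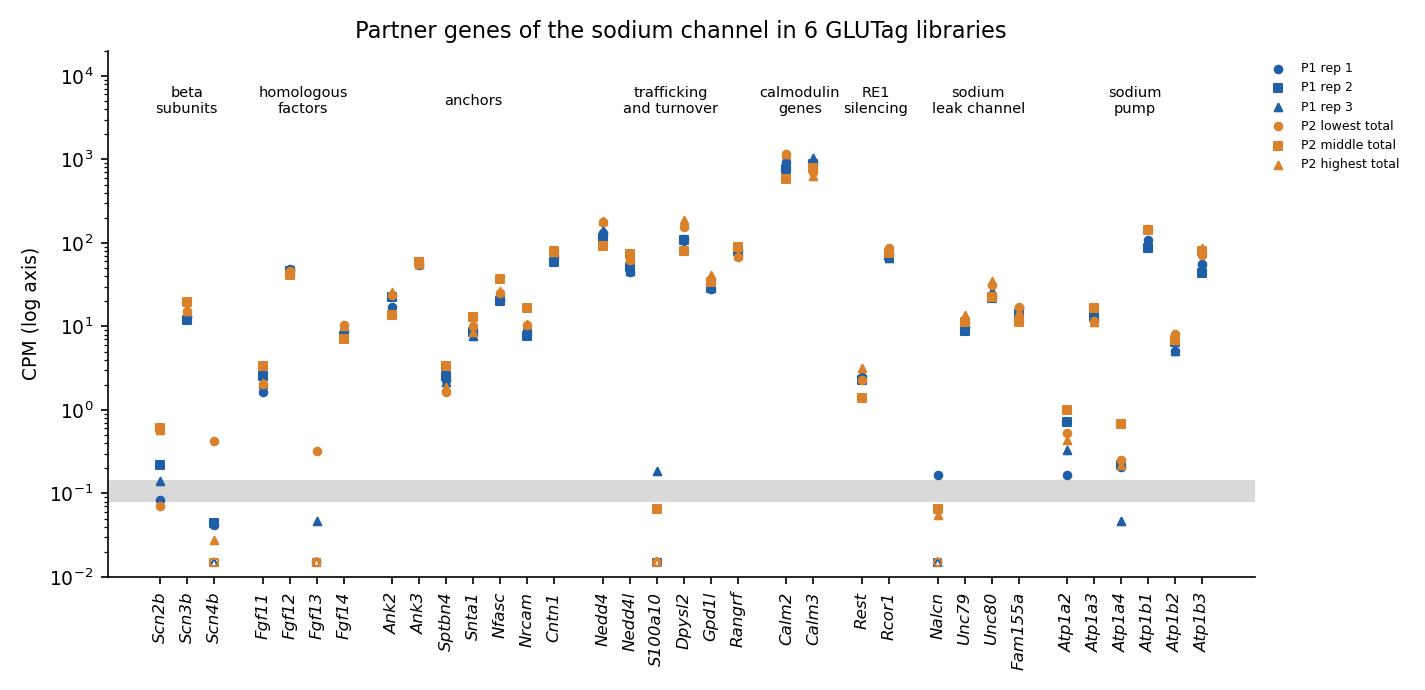
Level of the 34 partner genes in CPM on a log axis, grouped by list, 1 point for each library (blue for plate 1, orange for plate 2), with a grey band at the value of 3 counts and open symbols at the bottom for a count of 0. Scn3b leads the beta subunits shown at 15.1 CPM, Fgf12 leads the homologous factors at 45.5 CPM, and Nalcn and S100a10 lie near the band.

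As a description of what varied like Scn3a, the 3 genes whose centred log2(CPM + 1) profile over the 6 libraries was closest to it were Trub1, Akap1 and Vps51, with a root mean square difference of 0.060, 0.069 and 0.069 on the log2 scale. They were picked from 4344 genes with a mean level within 2-fold of Scn3a, whose median difference was 0.26. Scn1a was at 0.18, rank 436, and Scn8a at 0.24, rank 1558. All 6 libraries are of a single condition, so these profiles hold the spread between libraries alone.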

How the data were processed

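Expected counts per gene for 6 GLUTag libraries were deposited. The authors trimmed the reads (Trim Galore 0.6.4), assigned them with Salmon 1.5.1 to GENCODE M23 transcripts of GRCm38, setting no length correction, and gave gene sums that were not normalized. The 3 plate 2 columns could not be matched to single replicates and are named by their total.

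Symbols and positions are from GENCODE M21 on GRCm38, which held 54107 of the 54281 identifiers. Unrounded counts gave CPM. Rounded counts went into edgeR 4.0.16 (TMM, filterByExpr, robust quasi-likelihood), DESeq2 1.42.0 and limma 3.58.1, tested on simulated data. Pairs of members were compared by exact sign-flip tests in scipy 1.17.1 with a pseudocount of 1 CPM. Coding sequences were aligned with MAFFT 7.526. Alternatives were other tools, filters, scalings and pseudocounts, each plate alone and the omission of each library.

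The members and lists were chosen with earlier results of these data known. All members, the beta subunits and homologous factors read, and the highest and lowest gene read of each other list are named. Nrcam, Nedd4l, Atp1b3 and the single marker genes were named after their values were seen. Some partner genes and one member's sequence are not reported here. The partner listed as Nalf1 is in the table as Fam155a.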

Additional observations from a re-analysis of the deposited data

Results flagged for a closer look

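Among 42 values over the 6 libraries (the CPM of members and partners with a mean count of at least 10, the family's CPM and the shares of the members), 2 had a library whose gap to the others was large against the whole range. Chance gives about 1 in 20, and both were highest in the middle-total library of plate 2, which stands apart over many genes. The share of Scn8a in the family was 26.94% there against 19.0% to 21.3% in the others. The level of the adhesion gene Nrcam was 16.72 CPM against 7.64 to 10.7 CPM, and leaving that library out moved the mean of Nrcam from 10.5 to 9.28 CPM. Whether the other differences of that library bear on these values was not tested.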

How the results depend on the processing

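Each of the 26 separated pairs stayed separated with pseudocounts of 0.1 and 5 CPM and with TMM scaling, which is fixed by the arithmetic, since these settings cannot change which gene is higher in a library. Among the members above 3 counts in each library, an alternative chosen after seeing the data, 14 of 15 pairs were separated. The size of a difference did move, that of Scn2a above Scn11a from 1.33 to 1.94 with 0.1 CPM and 0.59 with 5 CPM on the log2 scale. The mean levels, the share of the highest member and the tetrodotoxin-sensitive share moved by less than 1 SD under each setting run, which for a single plate or an omitted library is fixed by the arithmetic. Between the plates the adjusted p of the members stayed above 0.05 in each setting run, with 0.193 as the smallest, but the sign of small fold changes turned. With no scaling beyond the total count, log2 changes were 0.0032 for Scn3a, 0.24 for Scn1a and 0.10 for Scn9a. Without the middle-total library of plate 2 they were 0.02 for Scn1a and -0.10 for Scn8a. Over all omissions Scn1a ran from -0.13 (without plate 1 replicate 2) to 0.13 (without replicate 3) and Scn8a from -0.10 to 0.17 (without replicate 3). Others kept their sign but moved in size. Scn11a was -0.70 without plate 1 replicate 1 and -0.17 without replicate 2. Scn9a was -0.32 without replicate 2, -0.10 without replicate 1 and -0.07 without replicate 3. Scn2a was -0.20 without the middle-total library of plate 2. The number of genes called over the whole table was 29 in edgeR, 530 with DESeq2, 10 with limma-voom, 545 with no filter on low counts and 1461 with no scaling beyond the total count, where 1390 of them were higher on plate 2 against 2 of the 29. It ran from 0 (without plate 1 replicate 1, with 1611 at an unadjusted p under 0.05, or without the lowest-total library of plate 2, with 2121) to 1911 (without its middle-total library) over the omissions. The cause was not tested. No paired analysis was possible because sample numbering in the labels runs on from plate to plate, and the column headers, which use the same numbers on both plates, tie no number to a shared batch or culture. Depth limits Scn4a and Scn10a, at 4 counts or fewer.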
